A study of Mus musculus with 177 samples.

Results

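Metallothioneins are small, cysteine-rich proteins that bind zinc and copper ions. Mt1, Mt2 and Mt3, 3 genes of 19937 measured, were followed here in newborn mice after a period of low oxygen. Each gene was taken through the probe set annotated to it alone. Probe sets were selected on their mean log2 level where a gene had several, but Mt1, Mt2 and Mt3 had 1 each (10574027, 10574023 and 10574018), so this step decided nothing. The family itself was chosen by its already known response to hypoxia in these samples, so the p-values below describe that response and are not independent support for it.

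As background, Mt1 and Mt2 are made by most tissues and are induced by zinc through the transcription factor MTF1, and also by glucocorticoids and by inflammatory signals that act through STAT3. In brain they are made mainly by astrocytes. Mt3 is found mainly in the nervous system, was first described as a growth inhibitory factor for neurons, and is much less inducible by metals. A further member, Mt4, belongs to stratified epithelia.

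C57BL/6 mice at postnatal day 7 breathed gas with an inspired oxygen fraction of 0.08 for 120 min, followed by 30 min of 21, 40, 60 or 100% oxygen; these groups are called H21, H40, H60 and H100. Mice of the groups N100 and N21 breathed air (an inspired fraction of 0.21) for 120 min and then 100 or 21% oxygen for 30 min. After a further 150 min in air, all groups gave lung, brain and eye. All mice were of 1 strain, and the labels name no allele and no pooling of animals, so arrays of a group were taken as separate mice. The question addressed by the design is how hypoxia, and the oxygen level used afterwards, alter gene expression in each tissue.

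Of the 177 arrays, lung gave 61, brain 59 and eye 57. In 3 of them the whole profile correlated better with another tissue than with the labelled one: the arrays labelled Lung H40 replicate 10 (brain), Brain H40 replicate 7 (eye) and Eye H40 replicate 9 (lung). They were left out of all comparisons unless stated otherwise, which left 41 hypoxia and 19 normoxia lungs, 40 and 18 brains, and 38 and 18 eyes. Marker genes of type 2 alveolar cells, neurons and lens were high in the remaining arrays of lung, brain and eye. All values are log2 RMA values, in which a difference of 1 is a doubling, and were normalized within each tissue. Levels are therefore compared within a tissue and a gene only. The order of the sample records falls into a first run, sorted by group, and later runs; the labels do not say what the order stands for. In a fit with the groups, later minus first arrays was 0.58 ± 0.06 in lung, 0.35 ± 0.08 in brain and 0.50 ± 0.09 in eye for Mt1, and 0.57 ± 0.11, 0.19 ± 0.14 and 0.27 ± 0.13 for Mt2. Such a difference was common to many genes, with 11256 of 19937 called in lung, 8933 in brain and 7712 in eye, so results are also given by run.

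The genes lie next to each other on mouse chromosome 8, in the order Mt4, Mt3, Mt2, Mt1, with 1 predicted gene (Gm39227) between Mt3 and Mt2. The 250 bases before the start that RefSeq (GRCm38.p6) lists for each gene are shown because Mt1 and Mt2 were called for hypoxia in brain and eye and Mt3 was not. All 3 stretches are on the plus strand, at chr8:94178839-94179088 for Mt1, chr8:94172368-94172617 for Mt2 and chr8:94152357-94152606 for Mt3. Capitals mark the core of the metal response element, the site that MTF1 binds, searched on both strands as TGCACNC and TGCGCNC.
Mt1: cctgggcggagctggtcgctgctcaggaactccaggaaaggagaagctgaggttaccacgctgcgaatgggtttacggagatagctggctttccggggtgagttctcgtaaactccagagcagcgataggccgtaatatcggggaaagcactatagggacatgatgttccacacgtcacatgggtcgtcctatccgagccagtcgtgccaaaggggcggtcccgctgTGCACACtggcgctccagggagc
Mt2: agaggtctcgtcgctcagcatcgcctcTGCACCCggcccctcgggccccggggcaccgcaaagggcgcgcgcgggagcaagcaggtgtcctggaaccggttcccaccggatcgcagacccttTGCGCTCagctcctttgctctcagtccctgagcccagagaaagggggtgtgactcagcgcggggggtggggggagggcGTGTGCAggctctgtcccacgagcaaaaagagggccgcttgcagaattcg
Mt3: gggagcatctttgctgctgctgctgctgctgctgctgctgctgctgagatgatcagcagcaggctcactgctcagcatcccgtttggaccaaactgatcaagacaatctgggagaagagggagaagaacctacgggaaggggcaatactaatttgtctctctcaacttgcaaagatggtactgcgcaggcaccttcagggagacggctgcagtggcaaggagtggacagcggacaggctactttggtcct

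The Mt2 stretch held 3 cores, which began 223, 128 and 50 bases before the start. The Mt1 stretch held 1, which began 23 bases before the start. The Mt3 stretch held 0. With the 50 bases after the start included, the count was 3 in Mt1, 4 in Mt2 and 1 in Mt3. Of all 32851 promoter windows of this length (300 bases), 25.7% held a core, 1.97% held at least 3 and 0.517% at least 4. The start used for Mt1 lies 206 bases inside the RefSeq gene, so the gene has a further start upstream and the window depends on which one is taken. Windows at other starts, upstream or downstream, were not searched. The Mt1 counts and distances, and those of the motifs below, hold for this window only.

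Other motifs were searched in the same 300 bases, on both strands. The core that hypoxia-inducible factors bind (ACGTG or GCGTG) was matched 2 times in Mt1, 2 times in Mt2 and 0 times in Mt3, and 43.8% of all windows held it. The full palindromic glucocorticoid response element, found in 3 windows of all, had 0 matches in the 3 genes, as did its single arm TGTTCT (19.0% of windows) and the STAT site TTCNNNGAA (8.30%). The antioxidant element core TGACNNNGC was matched 1 time in Mt2 and 0 times in Mt1 and Mt3, against 12.4% of windows. A match is a run of letters, and absence from this window says nothing of sites elsewhere.

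Mt2 and Mt1 were higher after hypoxia in brain and in eye, and Mt3 was not called in any tissue. In brain Mt2 was 2.04-fold and Mt1 1.47-fold higher in the mean of the 4 hypoxia groups than in the mean of the 2 normoxia groups. In eye the ratios were 1.66 for Mt2 and 1.46 for Mt1. In lung the same comparison gave 1.23 for Mt2 and 1.07 for Mt1, and neither passed the test. Because the tissues were measured whole, a change in RNA per cell cannot be told apart from a change in the number of cells that express a gene.

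**Figure D1:**
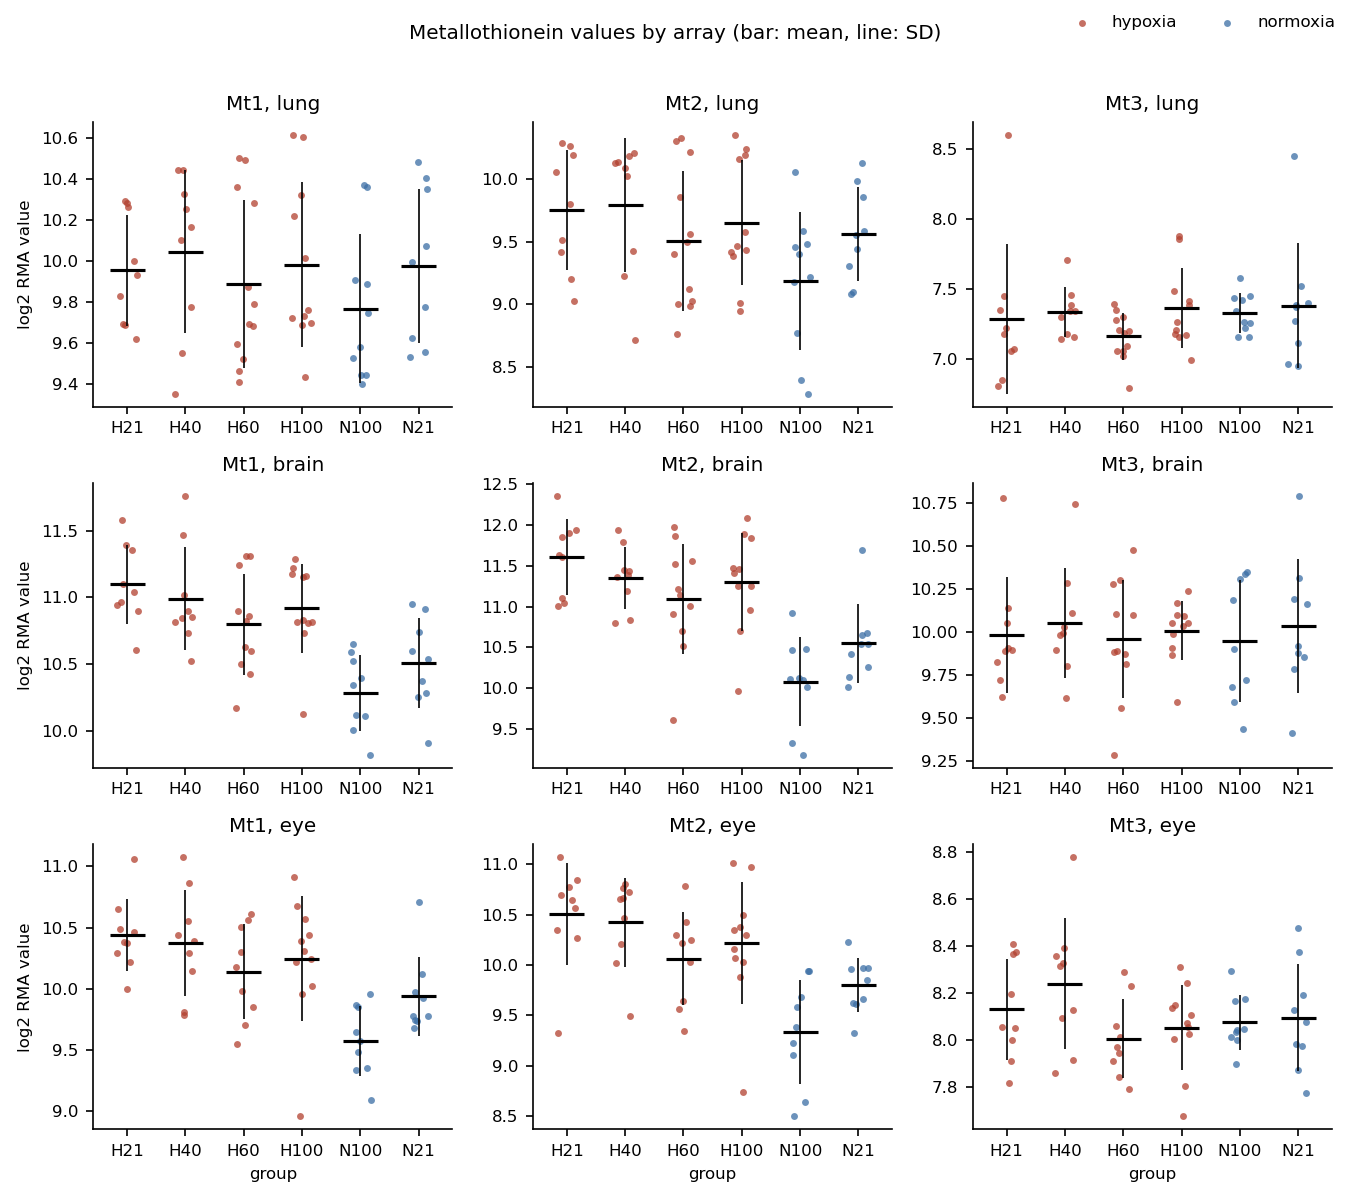
Log2 RMA value of Mt1, Mt2 and Mt3 (columns) in each array of lung, brain and eye (rows), by group; red points are hypoxia groups, blue points normoxia groups, the thick bar is the mean and the thin line spans 1 SD on each side. Brain Mt2 averaged 11.61 in H21 and 11.36 in H40, against 10.08 in N100 and 10.55 in N21, while brain Mt3 averaged between 9.95 and 10.05 in all 6 groups.

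Brain Mt2 ranged from 9.61 to 12.36 with a median of 11.40 in 40 hypoxia arrays, against 9.18 to 11.69 with a median of 10.34 in 18 normoxia arrays. The ranges overlapped, with 38 of 40 hypoxia arrays above the normoxia mean and 11 above the highest normoxia array. The difference was 1.03 ± 0.15 (standard error of the limma fit; adjusted p = 2.2e-05), the second smallest p among the 19937 genes. In the same comparison 17 genes were called (adjusted p under 0.05), 0.0853% of those tested, and 16 of them were higher after hypoxia (0.0803%).

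The highest normoxia value belonged to 1 air control, N21 replicate 2, at 11.69, and the next N21 brain was at 10.68. The 2 hypoxia arrays below the normoxia mean were H60 replicate 1 at 9.61 and H100 replicate 6 at 9.97. By group, brain Mt2 averaged 11.61 ± 0.47 in H21 (SD, n = 9), 11.36 ± 0.38 in H40 (n = 9), 11.09 ± 0.67 in H60 (n = 11) and 11.30 ± 0.60 in H100 (n = 11). It averaged 10.08 ± 0.55 in N100 and 10.55 ± 0.49 in N21 (n = 9 each). Every H21 and every H40 brain was above the normoxia mean.

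Brain Mt1 ranged from 10.13 to 11.76 with a median of 10.90 in hypoxia arrays, against 9.82 to 10.95 with a median of 10.39 in normoxia arrays. Here 38 of 40 hypoxia arrays lay above the normoxia mean, and 17 above the highest normoxia array. The difference was 0.56 ± 0.09 (limma, adjusted p = 0.00049), the fifth smallest p. Group means ran from 11.10 ± 0.30 in H21 and 10.99 ± 0.38 in H40 to 10.80 ± 0.38 in H60 and 10.92 ± 0.33 in H100, against 10.29 ± 0.29 in N100 and 10.51 ± 0.34 in N21 (SD).

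Brain Mt3 was not called. It ranged from 9.29 to 10.78 with a median of 9.99 after hypoxia and from 9.41 to 10.79 with a median of 9.91 in normoxia, and 20 of 40 hypoxia arrays were above the normoxia mean. The difference was 0.01 ± 0.09 (95% interval -0.17 to 0.19; limma, adjusted p = 1.00), an interval that lies below the changes of Mt1 and Mt2 in brain.

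In eye, Mt2 ranged from 8.74 to 11.07 with a median of 10.34 in 38 hypoxia arrays, against 8.50 to 10.22 with a median of 9.64 in 18 normoxia arrays. Of the hypoxia arrays 33 lay above the normoxia mean and 24 above the highest normoxia array. The difference was 0.73 ± 0.13 (limma, adjusted p = 0.0063), the second smallest p in a comparison that again called 17 genes (0.0853%), 13 of them higher (0.0652%). Mean eye Mt2 was 10.50 ± 0.50 in H21, 10.42 ± 0.44 in H40, 10.06 ± 0.46 in H60 and 10.22 ± 0.61 in H100, against 9.33 ± 0.52 in N100 and 9.80 ± 0.27 in N21 (SD, n = 9, and 11 for H100).

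Eye Mt1 ranged from 8.96 to 11.07 with a median of 10.35 after hypoxia and from 9.09 to 10.71 with a median of 9.76 in normoxia. Hypoxia arrays were above the normoxia mean in 35 of 38 cases. The difference was 0.54 ± 0.11 (limma, adjusted p = 0.013), the sixth smallest p. The lowest hypoxia value of both genes came from H100 replicate 6 (Mt1 8.96, Mt2 8.74), and the brain array of that group and number was the lowest of its group too (Mt1 10.13, Mt2 9.97). Eye Mt3 ranged from 7.68 to 8.78 after hypoxia and from 7.77 to 8.48 in normoxia, a difference of 0.02 ± 0.06 (95% interval -0.09 to 0.14).

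Lung showed no called change in the family. Mt2 ranged from 8.71 to 10.36 with a median of 9.57 in 41 hypoxia lungs, against 8.28 to 10.13 with a median of 9.45 in 19 normoxia lungs, and 30 of 41 were above the normoxia mean. The difference was 0.30 ± 0.14 (95% interval 0.03 to 0.58; limma, adjusted p = 0.44). Mt1 ranged from 9.35 to 10.62 after hypoxia and from 9.40 to 10.48 in normoxia, a difference of 0.10 ± 0.10 (adjusted p = 0.95), with 21 of 41 arrays above the normoxia mean. For Mt3 the difference was -0.07 ± 0.09 (adjusted p = 0.98). Lung was the tissue with the most called genes in this comparison, 331 (1.66%), of which 210 were higher (1.05%).

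The difference between tissues was tested directly, in 1 fit of all 18 groups. For Mt2 the change in lung minus that in brain was -0.72 ± 0.20, which missed the threshold (limma, adjusted p = 0.078; unadjusted p = 0.00042; 90 genes or 0.451% were called). For Mt1 lung minus brain was -0.46 ± 0.14 (adjusted p = 0.20) and lung minus eye -0.45 ± 0.14 (adjusted p = 0.22; 0.396% called). For Mt2 lung minus eye was -0.43 ± 0.20 (adjusted p = 0.77). Brain minus eye was 0.29 ± 0.20 for Mt2 and 0.01 ± 0.15 for Mt1 (adjusted p = 1.00 for both; 0.01% called). With the run as a block the lung to brain differences passed the threshold (Mt2 -0.71 ± 0.19, adjusted p = 0.032; Mt1 -0.44 ± 0.11, adjusted p = 0.014), as did Mt1 between lung and eye (-0.44 ± 0.11, adjusted p = 0.018). These fits take all arrays as independent, although arrays of the 3 tissues may come from the same mice. With group and number as a random block across tissues, lung minus brain was -0.71 ± 0.17 for Mt2 (limma, adjusted p = 0.013) and -0.45 ± 0.12 for Mt1 (adjusted p = 0.051). In the later runs 8 of 19 such lung and brain pairs differed in the sex read from the arrays. If that sex reads true, these blocks were not of 1 mouse, so this fit handles shared mice only in part.

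The direction in brain and eye was the same in both sets of runs. Both sets belong to the samples by which the family was chosen, so this is no independent support. In the first run brain Mt2 differed by 0.88 ± 0.18 (25 hypoxia and 13 normoxia arrays; unadjusted p = 2.5e-05, adjusted p = 0.10) and Mt1 by 0.43 ± 0.10 (unadjusted p = 6.1e-05, adjusted p = 0.14). In the later runs the values were 1.09 ± 0.24 for Mt2 and 0.66 ± 0.16 for Mt1 (15 and 5 arrays; adjusted p = 0.83 for both). There the lowest hypoxia brain was at 10.71 for Mt2 and the highest normoxia brain at 10.54, so that these 20 arrays did not overlap for Mt2. For Mt1 they did overlap, with the lowest hypoxia brain at 10.73 and the highest normoxia brain at 10.91. The share of all genes that separate these arrays was not counted.

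In eye the first run gave 0.55 ± 0.17 for Mt2 and 0.39 ± 0.10 for Mt1 (limma, adjusted p = 0.67 and 0.40), and the later runs 0.88 ± 0.15 and 0.67 ± 0.18 (adjusted p = 0.39 and 1.00). Eye Mt2 in the later runs lay at 10.16 or above in 14 hypoxia arrays and at 9.97 or below in 5 normoxia arrays. Eye Mt1 overlapped there, with the lowest hypoxia array at 10.31 and the highest normoxia array at 10.71. The share of all genes that separate these eye arrays was not counted either. In lung the first run gave 0.24 ± 0.15 for Mt2 and the later runs 0.25 ± 0.17, neither called. With the run as a block over all arrays, brain Mt2 (0.98 ± 0.14) and Mt1 (0.50 ± 0.08) and eye Mt2 (0.71 ± 0.13) and Mt1 (0.50 ± 0.08) remained called, with adjusted p between 3.6e-05 and 0.0034.

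The hypoxia groups were next set against the air control 1 at a time. Over N21, brain Mt2 was 1.06 ± 0.24 higher in H21, 0.81 ± 0.24 in H40, 0.55 ± 0.23 in H60 and 0.75 ± 0.23 in H100, and no single group passed the test (limma, adjusted p = 0.25 for H21 and 1.00 for the others). The unadjusted p for H21 was 4.9e-05, and 0 genes of 19937 were called in any of these 4 brain comparisons, with 265 to 691 at an unadjusted p under 0.05. Brain Mt1 gave 0.59 ± 0.15, 0.48 ± 0.15, 0.29 ± 0.15 and 0.41 ± 0.15 in the same order. These comparisons share the N21 arrays. Without N21 replicate 2, the high air control, H21 minus N21 for brain Mt2 was 1.20 and passed the test (limma, adjusted p = 0.028). This was the only 1 of 58 fits with 1 array left out in which it was called. In the other 57 it was not called, with adjusted p up to 0.94.

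Eye followed the same order of groups with smaller differences. Over N21, eye Mt2 was 0.71 ± 0.22 higher in H21, 0.62 ± 0.22 in H40, 0.26 ± 0.22 in H60 and 0.42 ± 0.21 in H100, none of them called (limma, adjusted p from 0.93 to 1.00). In lung the same differences lay between -0.05 and 0.23 for Mt2 and between -0.09 and 0.07 for Mt1, none of them called. The share of all genes called against N21 was 0.0502% for H21, 0.00502% for H40, 0% for H60 and 0.0201% for H100 in lung, and in eye 0.00502% for H21 and 0% for the others.

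**Figure D2:**
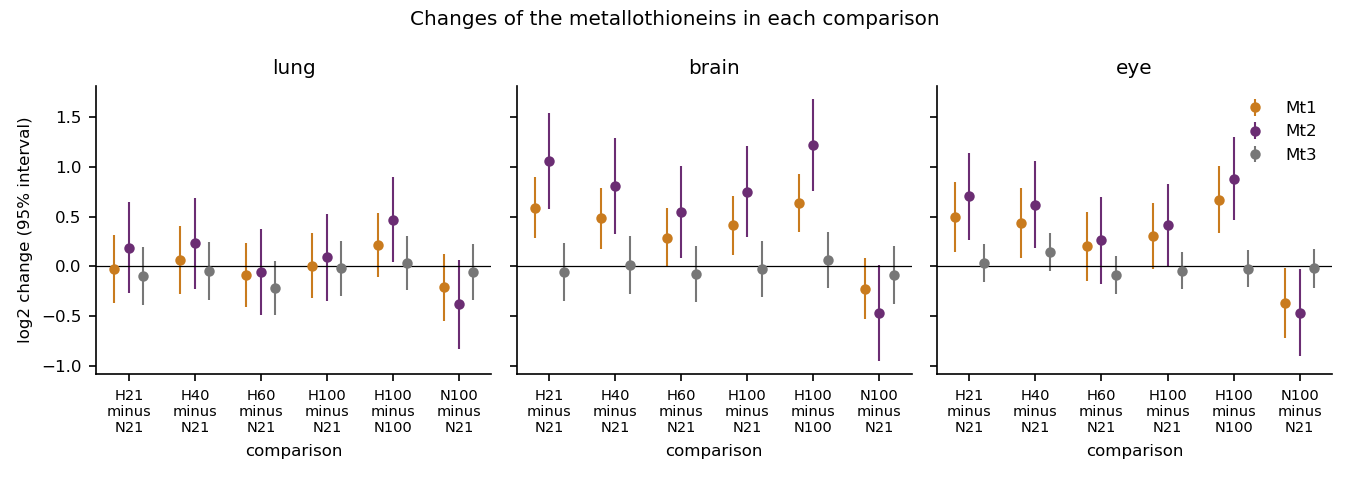
Log2 change of Mt1 (orange), Mt2 (purple) and Mt3 (grey) with its 95% interval from the fit, for 6 comparisons in lung, brain and eye. The largest change is that of brain Mt2 between H100 and N100, 1.22, and both Mt1 and Mt2 lie below 0 for N100 minus N21 in the 3 tissues.

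With 100% oxygen in both arms, hypoxia was followed by a brain Mt2 change of 1.22 ± 0.23 (H100 minus N100; limma, adjusted p = 0.035), a 2.33-fold difference and the smallest p of the comparison, in which 2 genes were called (0.01%). Values ran from 9.97 to 12.09 with a median of 11.41 in 11 H100 brains, against 9.18 to 10.92 with a median of 10.11 in 9 N100 brains. With 1 array left out at a time the change stayed between 1.11 and 1.36, but the call was lost in 11 of 58 cases (H100 replicates 1, 2, 3, 4, 5, 10 and 11, and N100 replicates 2, 5, 6 and 8; adjusted p up to 0.12), and with the run as a block the value was 1.11 ± 0.23 (adjusted p = 0.060). Brain Mt1 differed by 0.63 ± 0.15 (adjusted p = 0.17), eye Mt2 by 0.88 ± 0.21 (adjusted p = 0.14) and eye Mt1 by 0.67 ± 0.17 (adjusted p = 0.22), where 0% of genes were called. In lung Mt2 differed by 0.47 ± 0.21 and was not called, with 0.105% of genes called. Without H100 replicate 6, the lowest eye of that group, eye Mt2 and Mt1 differed by 1.03 and 0.80 and both passed the test (limma, adjusted p = 0.020). For each gene this was the only 1 of 56 fits with 1 array left out that gave a call. In the other 55 neither was called, with adjusted p up to 0.48.

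Between N100 and N21, which differ in oxygen with no hypoxia, limma called 0 genes in brain, lung and eye (806, 328 and 777 genes had an unadjusted p under 0.05). Mt2 differed between N100 and N21 by -0.47 ± 0.24 in brain, -0.47 ± 0.22 in eye and -0.38 ± 0.22 in lung (limma, adjusted p from 0.94 to 1.00). Mt1 differed by -0.22 ± 0.15, -0.36 ± 0.18 and -0.21 ± 0.17 in the same order. In each tissue 8 N100 arrays belonged to the first run, against 5 N21 arrays. Within the first run the Mt2 difference was -0.66 in brain and -0.63 in eye, and within the later runs, with 1 N100 array each, 0.11 and 0.03. Mt3 differed by -0.09 in brain, -0.02 in eye and -0.05 in lung.

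The oxygen level after hypoxia was not followed by a called difference. From 21 to 100% oxygen the fitted slope over the 4 hypoxia groups was -0.28 ± 0.22 for brain Mt2 and -0.32 ± 0.20 for eye Mt2 (limma, adjusted p = 0.78 and 0.83), and H100 minus H21 was -0.31 ± 0.23 and -0.29 ± 0.21. For Mt1 the slopes were -0.18 ± 0.14 and -0.21 ± 0.16. The effect of hypoxia was not called as different under 100% oxygen and under air either (interaction 0.16 ± 0.33 for brain Mt2, 0.18 ± 0.30 for eye Mt2). In the 3 tissues limma called 0 genes for the slope and 0 for the interaction, with 347 to 1285 and 479 to 788 genes at an unadjusted p under 0.05.

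In brain and in eye, Mt1 and Mt2 had the same order of group means: H21, H40, H100, H60, N21, N100, from high to low. Neighbours in this order differed by less than their pooled SD, except N21 and N100 in eye, which differed by 0.36 (pooled SD 0.30) for Mt1 and by 0.47 (pooled SD 0.41) for Mt2. In lung Mt2 the order was H40, H21, H100, N21, H60, N100, with every neighbouring difference under the pooled SD. Mt3 had another order in each tissue, with H40 highest in brain and eye and neighbours never apart by more than 0.13.

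Mt1 and Mt2 also varied together between arrays of the same group. Over deviations from group means their correlation was 0.86 in lung (Spearman 0.86, n = 60), 0.76 in brain (Spearman 0.73, n = 58) and 0.73 in eye (Spearman 0.71, n = 56). Each had a permutation p of 1e-05, the smallest that 100000 permutations within groups can give (3e-05 adjusted over 9 pairs). Without the 2 arrays farthest from the median of Mt1 the coefficients were 0.84, 0.74 and 0.68. In the first run alone they were 0.84, 0.87 and 0.81, and in the later runs 0.78, 0.49 and 0.47. Over all arrays other genes came closer to Mt1 than Mt2 did: Txn2 in lung (0.91), Tmbim1 in brain (0.79) and Uqcr10 in eye (0.77). A high correlation was thus not particular to this pair. In the first run these genes stood at 0.77, 0.71 and 0.67. Mt1 and Mt2 sequences are similar, and cross-hybridization between their probe sets was not tested.

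In brain, Mt3 varied with Mt1 as well. The correlation was 0.57 (Spearman 0.64; permutation p = 2e-05, 4.5e-05 adjusted), 0.59 without the 2 farthest arrays and 0.57 in each set of runs. Between Mt3 and Mt2 in brain it was 0.41 (Spearman 0.46; adjusted permutation p = 0.003), 0.44 in the first run and 0.06 in the later runs. In lung (0.22 and 0.10) and eye (-0.03 and 0.06) the correlation of Mt3 with Mt1 and Mt2 did not pass the test (adjusted permutation p from 0.12 to 0.83).

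**Figure D3:**
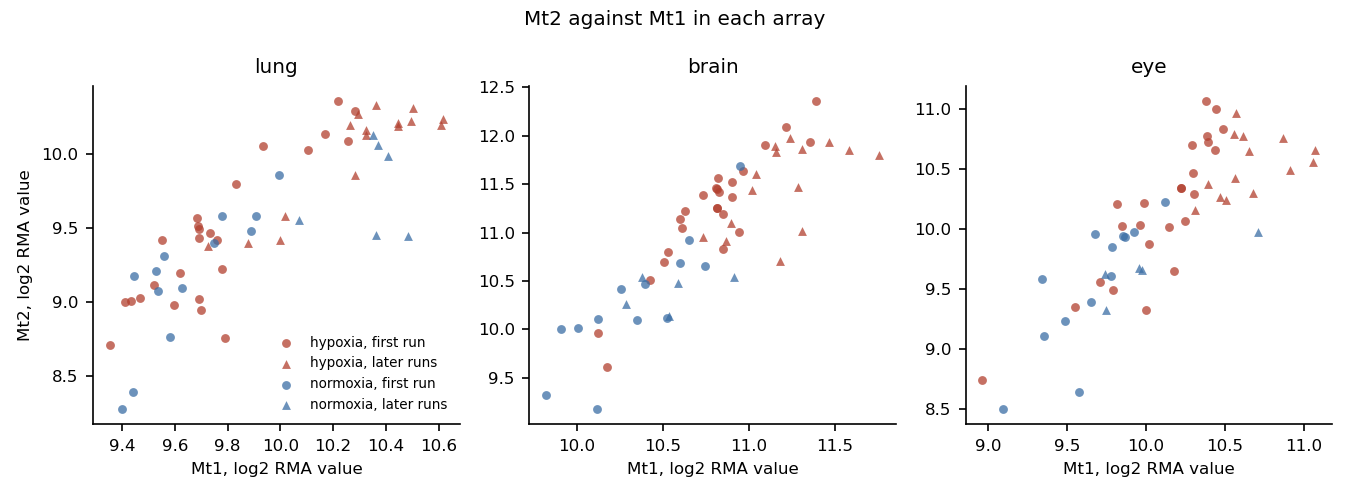
Mt2 against Mt1, both as log2 RMA values, in each array of lung, brain and eye; red marks are hypoxia arrays, blue marks normoxia arrays, circles the first run and triangles the later runs. The 2 genes rise together in every tissue (within-group r of 0.86, 0.76 and 0.73), and in brain 38 of 40 hypoxia arrays lie above the normoxia mean of each gene.

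The genes whose values moved most like a member between arrays of a group were named by the 5 highest correlations per tissue, as a description. They share the arrays and their RNA quality with the member. For brain Mt2 they were the neurotensin receptor Ntsr2, which astrocytes express (0.71), the heparan sulfate proteoglycan Sdc4 (0.69), the TNF receptor Tnfrsf1a (0.67), the glucocorticoid-induced chaperone Fkbp5 (0.64) and the zinc transporter Slc30a3 (0.63), over 58 arrays. In the first run these were 0.72, 0.80, 0.73, 0.69 and 0.67. For eye Mt2 they were Cbr3 (0.73), Plpp1 (0.71), Ccn2 (0.70), Tmem140 (0.70) and Tsc22d3 (0.70), the last a glucocorticoid-induced leucine zipper protein, over 56 arrays. Of these 10 genes only Fkbp5 was called for hypoxia.

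For brain Mt1 the list was Tmbim1 (0.79), Bnip3 (0.73), Cst3 (0.72), Mgp (0.71) and Bcl7b (0.70), and for eye Mt1 it was Uqcr10 (0.77), Ccny (0.76), Ifitm1 (0.75), Mgp (0.74) and B4galt1 (0.74). Once the run was removed as well, the brain values ranged from 0.56 to 0.70 and the eye values ranged from 0.49 to 0.75. In lung the closest genes were Txn2 for Mt1 (0.91, and 0.75 with the run removed) and Ubxn1 for Mt2 (0.89, and 0.82). Brain Mt3 was closest to Ttc9b (0.90) and to the respiratory chain subunit Uqcrq (0.87).

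Genes that work with metallothioneins in zinc and copper handling were then set beside them. Of the zinc sensor MTF1 and its targets Slc30a1, Slc39a10 and Gclc, 0 of 4 were called in brain, eye or lung for all hypoxia against all normoxia. Over all genes the share called was 0.0853% in brain, 0.0853% in eye and 1.66% in lung, so that a count of 0 in short lists such as these is near the background. The largest brain changes in that list were -0.06 ± 0.06 for Slc30a1, the zinc exporter of the plasma membrane, and 0.03 ± 0.05 for Gclc, the catalytic subunit of the enzyme that starts glutathione synthesis. In eye Slc30a1 gave -0.13 ± 0.05 (limma, adjusted p = 0.70). None of 10 zinc exporters and none of 14 zinc importers was called in any of the 3 tissues. The largest importer change was that of Slc39a10 in lung, -0.20 ± 0.09 (adjusted p = 0.48), and of Slc39a8 in eye, 0.20 ± 0.16 (adjusted p = 1.00).

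Among 10 copper handling genes measured, 1 was called: the copper importer Slc31a1 in lung, where 1.66% of all genes were called, at 0.20 ± 0.05 (limma, adjusted p = 0.032). It was not called with every probe set tested (adjusted p = 0.054). Slc31a2 gave 0.18 ± 0.10 in brain and 0.25 ± 0.17 in eye, neither called. The medians of these 4 lists lay between -0.07 and 0.05 in the 3 tissues, beside medians within 0.01 of 0 over all genes. The remaining family gene, Mt4, gave -0.02 ± 0.08 in brain, 0.00 ± 0.06 in eye and 0.06 ± 0.07 in lung.

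**Figure D4:**
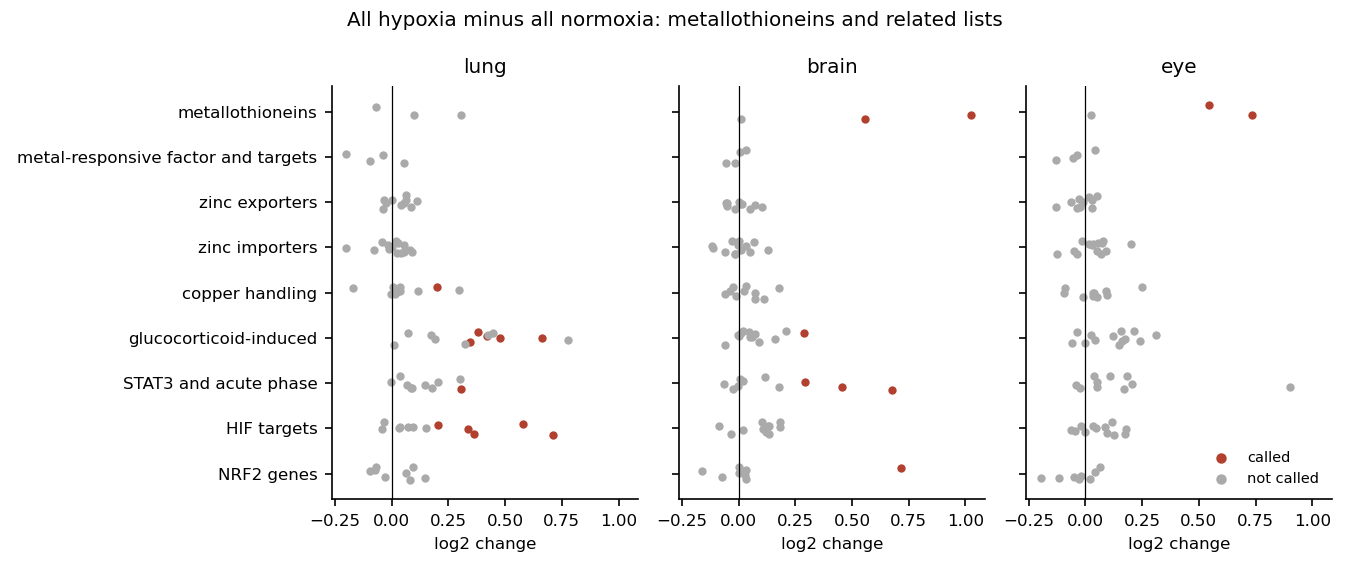
Log2 change between all hypoxia and all normoxia arrays for the metallothioneins and for each measured gene of 8 lists, in lung, brain and eye; red points were called (adjusted p under 0.05) and grey points were not, and the vertical spread within a row has no meaning. Mt1 and Mt2 are the called points of the top row in brain (0.56 and 1.03) and eye (0.54 and 0.73), while the metal-responsive and zinc lists have none.

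Glucocorticoids raise Mt1 and Mt2, and genes they induce were called in lung and, for 1 gene, in brain. In brain 1 of 13 measured was called, Fkbp5, where 0.0853% of all genes were called. Fkbp5 ranged from 7.77 to 8.76 (median 8.29) after hypoxia against 7.79 to 8.47 (median 8.03) in normoxia. The change was 0.29 ± 0.06 (limma, adjusted p = 0.0065). In eye 0 of 13 were called, near the share of 0.0853% of all genes. Zbtb16 gave 0.31 ± 0.09 and Sult1a1 0.24 ± 0.09 in eye (limma, adjusted p = 0.25 and 0.71). In lung 5 of 13 were higher, against 1.05% of all genes. Mt1 and Mt2 were not called in lung, and a link between them and glucocorticoids was not tested in any tissue. The 5 genes included the sulfotransferase Sult1a1 (0.66 ± 0.09), the kinase Sgk1 (0.48 ± 0.08), Tsc22d3 (0.42 ± 0.11) and Map3k6 (0.38 ± 0.09). Their adjusted p in limma ran from 5.3e-06 to 0.022. Tsc22d3 was not called once the array with a brain profile was included (0.39, adjusted p = 0.11). The receptor Nr3c1 itself changed by -0.07 ± 0.05 in brain, 0.01 ± 0.05 in eye and -0.09 ± 0.06 in lung, with no call.

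The list of STAT3 and acute phase genes had 3 of 10 called in brain, all higher, against 0.0803% of all genes. Lcn2, the iron-binding acute phase protein lipocalin 2, ranged from 5.33 to 6.75 (median 6.17) after hypoxia against 5.16 to 6.45 (median 5.42) in normoxia, a change of 0.67 ± 0.09 (limma, adjusted p = 2.2e-05). Osmr, the receptor of oncostatin M, changed by 0.46 ± 0.09 (adjusted p = 0.015) and Stat3 by 0.29 ± 0.06 (adjusted p = 0.013). In eye 0 of 10 were called, near the share of 0.0853% of all genes. Lcn2 gave 0.90 ± 0.32 in eye (limma, adjusted p = 0.63), with 1 hypoxia eye as high as 11.18. Its median was 6.37 after hypoxia, against 5.97 in normoxia. In lung 1.66% of all genes were called, and in this list only Il6ra, at 0.31 ± 0.08 (limma, adjusted p = 0.020). Il6ra was not called when the array with a brain profile was included (adjusted p = 0.33). The members of all these lists, those of the next paragraph included, were chosen with earlier results of these samples known. Their direction is no independent evidence.

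Of 12 targets of hypoxia-inducible factors, 0 were called in brain and 0 in eye, near the share of 0.0853% of all genes in each. A part of these factors in the Mt1 and Mt2 values was not tested. Changes above 0 were found for 10 of 12 in brain (median 0.12) and 8 of 12 in eye (median 0.07), beside medians within 0.01 of 0 over all genes. The largest brain values were 0.18 ± 0.04 for the kinase Pdk1 (limma, adjusted p = 0.059) and 0.18 ± 0.08 for Bnip3. In lung 5 of 12 were higher, against 1.05% of all genes, led by the vasodilator peptide gene Adm (0.71 ± 0.10, adjusted p = 1.3e-06), Hif3a (0.58 ± 0.14), Bnip3 (0.36 ± 0.09) and the collagen hydroxylase P4ha2 (0.33 ± 0.07). Of 8 oxidative stress genes controlled by NRF2, only Hmox1, the heme-degrading enzyme, was called, in brain, against 0.0853% of all genes there. It ranged from 6.17 to 8.37 (median 7.46) after hypoxia against 6.35 to 7.48 (median 6.65) in normoxia, a change of 0.72 ± 0.13 (adjusted p = 0.0017). In eye and in lung 0 of 8 were called, with 0.0853% and 1.66% of all genes called.

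Markers of glial cells, which make metallothioneins, were not called in brain or eye. With 0.0853% of all genes called in each of these tissues, a count of 0 in short lists is near the background. It does not show that cell numbers were unchanged. The mean of 9 astrocyte genes ranged from 9.34 to 10.28 (median 9.89) in hypoxia brains and from 9.34 to 10.26 (median 9.87) in normoxia brains, and 0 of 9 were called. The mean of 4 Müller glia genes in eye ranged from 10.21 to 11.12 (median 10.90) after hypoxia and from 10.10 to 11.02 (median 10.92) in normoxia, with 0 of 4 called. Neutrophil genes had medians of 4.18 and 4.15 in hypoxia and normoxia brains and 4.42 and 4.37 in eyes, with 0 of 5 called in each. In lung their median was 6.38 after hypoxia, against 5.83 in normoxia. There 1 of 5 was called, where 1.66% of all genes were called, and the part of neutrophils in the lung values was not tested. The mean of 3 brown fat genes in lung had a median of 5.84 after hypoxia and 7.26 in normoxia, with 0 of 3 called, and its part was not tested either. In eye, skeletal muscle genes changed by a median of -0.27 (0 of 4 above 0; mean level 9.87 to 11.62, median 11.21, after hypoxia and 10.75 to 11.66, median 11.34, in normoxia), rod genes by -0.17 (1 of 4 above 0) and neuron genes by -0.06 (1 of 7 above 0). None of these was called, and their part in the eye values was not tested.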

How the data were processed

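Lung, brain and eye RNA of 62 mice named in the design text was measured on Affymetrix arrays, from 10 ng of RNA each. Per the labels' protocols the RNA came through a blood kit and a Ficoll gradient, although the tissues are solid. The authors deposited log2 values made with RMA, per the submitters' processing notes; its version is not given in the sources used here. RMA corrects background, equalizes distributions and summarizes probes. Array medians were alike within a tissue and differed between tissues, so tissues were taken as normalized separately. The number of arrays limits the precision.

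Of 34760 probe sets, 21640 had exactly 1 gene symbol, 1321 several and 11799 none. A RefSeq table gave 21553 a current symbol, which left 19937 genes. Changes were fitted with limma 3.58.1 in R 4.3.3 (lmFit and eBayes, two-sided, with data.table, version 1.17.8), with 6 groups in 1 fit per tissue and Benjamini-Hochberg adjustment over all genes. An adjusted p under 0.05 was called, and ± is the standard error of the fit unless marked SD. The fits were tested on simulated data with genes drawn independently and no difference between runs. That test therefore does not cover the run difference of these arrays. Correlations used deviations from group means and 100000 permutations within groups.

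The family, the gene lists and the pooled contrast of 4 hypoxia and 2 normoxia groups were chosen with earlier results of these data known. Of each list up to 4 called genes were named by size of change, or the 2 largest changes where none was called; per member and tissue the 5 most alike genes were named. Other settings tried were a block for the run or each run alone, a block for the replicate number, sex, fewer groups in the fit, every probe set, array quality weights, a second quantile normalization, the dimmest 40% of genes removed, the 3 arrays of another tissue's profile included, and each array left out. Run with sex, and run in the likeness, were added after the data were seen. Replicate numbers were not taken to pair arrays within a tissue.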

Additional observations from a re-analysis of the deposited data

Results flagged for a closer look

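Of 39 sets of values (1 gene in 1 group of 4 to 10 arrays), 6 held 1 array far from the others, where chance gives about 1 in 20. For Mt2 these were Brain N21 replicate 2, the highest at 11.69 with the next at 10.68, and Eye H21 replicate 5, the lowest at 9.33 with the next at 10.27. For Mt1 it was Eye N21 replicate 7, the highest at 10.71 with the next at 10.12. For Mt3, Brain H21 replicate 1 was the highest at 10.78 (next 10.14), Lung H21 replicate 1 at 8.60 (next 7.45) and Lung N21 replicate 9 at 8.45 (next 7.52).

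The array labelled Lung H40 replicate 10, whose profile was that of brain and which was used only in the alternative fits that include it, read 11.38 for Mt1, 11.90 for Mt2 and 10.31 for Mt3. The highest of 19 normoxia lungs read 10.48, 10.13 and 8.45.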

How the results depend on the processing

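Over 99 results on these genes, 1143 values under other settings lost a call in 16 cases and gained one in 9, and 5220 with 1 array left out in 11 and 4. Uncalled values changed sign by more than the larger standard error in 24 and 0 cases, and by less in 62 and 105. A call could be lost only where the main fit gave one. Such calls were Mt1 and Mt2 for all hypoxia against all normoxia in brain and eye, each lost in 2 of 12 other settings. The other was brain Mt2 between H100 and N100, lost in 8 of 12 and in 11 of 58 fits with 1 array left out. The calls of Mt1 and Mt2 for all hypoxia against all normoxia in brain and eye were lost only within single runs, which hold fewer arrays: 0.43 and 0.88 in brain and 0.39 and 0.55 in eye in the first run, and 0.66 and 1.09 in brain and 0.67 and 0.88 in eye in the later runs. With 1 array left out these changes ranged from 0.52 to 0.58 and 0.97 to 1.10 in brain and from 0.51 to 0.59 and 0.68 to 0.77 in eye, all called.

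Numbers of genes called for all hypoxia against all normoxia moved with the setting, from 23 to 834 around 331 in lung, 0 to 41 around 17 in brain and 0 to 53 around 17 in eye, lowest within a single run and highest with array quality weights. Lung minus brain passed the threshold with those weights (Mt1 -0.42, Mt2 -0.69) and with the run as a block (-0.44 and -0.71), where lung minus eye for Mt1 (-0.44) passed too.

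Same-numbered arrays of a tissue had a median r of 0.13 in lung, 0.13 in brain and 0.03 in eye, against -0.02, -0.02 and -0.03 for other numbers. Of these same-numbered pairs 77 of 139, 73 of 134 and 52 of 131 were over 0.1. Only group means were removed here, and numbers rise with the order of the records, so the run enters these values. They cannot tell whether a number stands for more than the run. The main fits did not pair arrays by number. With the replicate block, brain Mt1 and Mt2 changed by 0.49 and 0.93 and eye Mt1 and Mt2 by 0.53 and 0.70, all called, while brain Mt2 between H100 and N100 (1.08, adjusted p = 0.15 in limma) was not. Group and number as a replicate block across tissues gave -0.71 (adjusted p = 0.013 in limma) for Mt2 in lung minus brain, although some later pairs in these blocks differed in sex. The call of brain Mt2 between H100 and N100 was lost in 8 of 12 other settings (adjusted p from 0.0019 to 0.92). With array quality weights brain Mt1 (0.64), eye Mt1 (0.58) and eye Mt2 (0.78) were called for it.

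The sign turned by more than the larger standard error for these uncalled values, and the cause was not tested. With the array of another tissue's profile included, lung Mt3 in H40 minus N21 was 0.25. With the run as a block, the interaction was -0.055 for lung Mt1, -0.041 for lung Mt2 and -0.15 for eye Mt1; with run and sex it was -0.060, -0.077 and -0.21, and -0.18 for brain Mt1. In the first run, lung Mt3 gave 0.10 for H21 minus N21, -0.18 for H100 minus H21, -0.20 for the slope and -0.17 for the interaction, lung Mt1 -0.0056 for the interaction and eye Mt2 -0.073 for H60 minus N21. In the later runs all hypoxia minus all normoxia was -0.060 for Mt1, 0.050 for Gclc, -0.11 for Mt4 and -0.053 for Nqo1 in lung, and -0.050 for Slc39a1 and -0.13 for Slc31a2 in brain. There lung Mt2 gave 0.24 for H60 minus N21 and lung Mt1 -0.11 for H100 minus N100 and 0.039 for N100 minus N21. Brain Mt3 gave 0.28 for H60 minus N21, -0.19 for H100 minus N100, 0.30 for N100 minus N21 and -0.20 for the interaction, and N100 minus N21 for Mt2 was 0.11 in brain and 0.032 in eye.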

Other observations

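Arrays of the same group and number in different tissues were set against each other after the values had been seen. The labels do not say that a shared number is the same mouse; in the first run the sex read from the arrays was the same in 36 of 37 brain and eye pairs, 36 of 37 lung and eye pairs and 38 of 38 lung and brain pairs. In the later runs it was the same in 15 of 17, 11 of 17 and 11 of 19, so at least the pairs that differ there were not of 1 mouse, if the arrays' sex reads true. Over deviations from group means in the first run, Mt2 in brain correlated with Mt2 in eye (r = 0.77, Spearman 0.67, n = 37; adjusted permutation p = 9e-05 and 0.00045 over 9 relations). Without the 2 farthest arrays r was 0.72, and in the later runs 0.64 (n = 17). For Mt2 in lung and eye r was 0.67 (Spearman 0.61; adjusted permutation p = 0.00036 and 0.0014), 0.64 without the 2 farthest arrays, but 0.02 in the later runs. For Mt2 in lung and brain r was 0.47 (Spearman 0.46, n = 38; adjusted permutation p = 0.0083 and 0.013), 0.48 without 2 arrays and 0.48 in the later runs (n = 19).

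Mt1 in brain and eye gave r = 0.64 (Spearman 0.54; adjusted permutation p = 0.00036 and 0.0028), 0.56 without the 2 farthest arrays and 0.35 in the later runs. For Mt1 in lung and brain r was 0.36 (adjusted permutation p = 0.035), which rested on 2 arrays (0.25 without them), and in lung and eye it was 0.21 (adjusted permutation p = 0.29). Mt3 in brain and eye gave r = 0.45 (adjusted permutation p = 0.02, and 0.1 for the Spearman value of 0.32), with -0.41 in the later runs.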
